A study of Mus musculus with 32 samples.

Results

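Salsalate is a prodrug of salicylate, and mammals clear salicylate largely by conjugation. In the first step toward the glycine conjugate, an acyl-CoA synthetase of the mitochondrial matrix joins the acid to coenzyme A, and a glycine N-acyltransferase then moves the acyl group to glycine. In a separate route, UDP-glycosyltransferases of the endoplasmic reticulum transfer a sugar from a UDP-sugar to an acid, phenol or steroid. The proximal tubule of the kidney and the hepatocyte are the main sites of the glycine route. The 9 genes described here belong to the enzyme families of these routes and were taken by symbol from the 53700 genes of the count table. Whether each of them acts on salicylate was not tested. They are the acyl-CoA synthetases *Acsm1*, *Acsm2*, *Acsm3* and *Acsm5*, the glycine N-acyltransferase *Glyat* and its kidney-expressed relative *Keg1*, and the glycosyltransferases *Ugt3a1*, *Ugt3a2* and *Ugt2b38*. All 9 passed the filter on low counts, which left 13961 genes for testing.

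RNA of 32 kidneys of male C57BL/6 mice had been sequenced. Every mouse was of the iKspCre-Pkd1del line, with a kidney-specific, tamoxifen-inducible Cre and loxP sites around exons of *Pkd1*. The 12 PKD animals had been given tamoxifen (150 mg/kg) and normal chow and were labelled as 95 days old. The 12 PKD + Salsalate animals had been treated likewise, but were fed chow with salsalate (2.5 g/kg) for 2 weeks, and were also labelled as 95 days old. The 8 wildtype animals were mice of the line without tamoxifen, so they still carried the Cre and the loxP sites, and they were labelled as 109 days old, although the growth protocol gives the same end, day 95, for all mice. *Pkd1* deletion, tamoxifen and labelled age therefore differed together between wildtype and PKD animals, and cannot be told apart. The cystic phenotype of the PKD animals was mild, because the authors had selected mice of both PKD groups for a similar, mild phenotype.

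Total counts on genes ranged from 11193136 to 109807664 per kidney. *Pkd1* itself averaged 68.7 ± 10.9 CPM (counts per 1000000 of the normalized library total; SD, n = 8) in wildtype, 92.1 ± 15.1 in PKD (n = 12) and 92.7 ± 15.1 in PKD + Salsalate animals (n = 12), but a count over the whole gene cannot tell deleted from intact exons. All 10 markers of the early proximal tubule, such as *Slc34a1*, had a median above 1 CPM in each group. PKD replicate 10 held liver transcripts: 12 liver markers summed to 4047 CPM, against at most 126 CPM in any other PKD kidney, with *Alb* alone at 1930 CPM. Among PKD kidneys it was also the highest in *Acsm1*, *Acsm3*, *Acsm5*, *Keg1* and *Ugt2b38*. PKD + Salsalate replicate 11 had the highest injury transcripts of its group, with *Havcr1* at 144 CPM. The wildtype libraries formed 2 sets: 5 have names that end in R, a mark whose meaning was not given, and 3 do not. In the libraries ending in R, 13.2% to 15.7% of alignments lay on no annotated feature, against 7.604% to 9.77% in the other 3, and comparisons of the 9 genes with wildtype are given for both sets.

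On GRCm39 the 4 synthetase genes lie on the plus strand of chromosome 7. *Acsm5* (ENSMUSG00000030972) spans 119118686 to 119144774, *Acsm2* (ENSMUSG00000030945) 119153563 to 119199913, *Acsm1* (ENSMUSG00000033533) 119206249 to 119261738 and *Acsm3* (ENSMUSG00000030935) 119360137 to 119386736. Only 8788 bases separate *Acsm5* from *Acsm2* and 6335 bases *Acsm2* from *Acsm1*, whereas 98398 bases with *Thumpd1* and *Acsm4* lie between *Acsm1* and *Acsm3*, and their coding sequences are 64.9% to 69.3% identical. *Glyat* (ENSMUSG00000063683, chromosome 19, 12610668 to 12631275) and *Keg1* (ENSMUSG00000024694, 12673140 to 12699434) lie 41864 bases apart, with *Or5b94* and *Or5b95* between them, and 73.55% of their aligned coding bases are identical. *Ugt2b38* (ENSMUSG00000061906) lies on the minus strand of chromosome 5, from 87557801 to 87572062.

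The names of the remaining genes need care. Gene names here follow GENCODE, in which *Ugt3a2* (ENSMUSG00000072664) spans 9276974 to 9315118 of chromosome 15 and *Ugt3a1* (ENSMUSG00000049152) 9335636 to 9371564. The RefSeq start region filed under the symbol *Ugt3a1* matched only a place inside GENCODE *Ugt3a2*, so that symbol is used for different genes in these annotations, and no donor sugar is assigned by symbol here. The coding sequences of *Ugt3a1* and *Ugt3a2* are 93.2% identical. Of all 50-base stretches in the transcripts of *Ugt2b38*, 37.4% also occur in another gene (*Ugt2b5*, *Ugt2b37* or *Ugt2b36*), against 7.54% for *Ugt3a2*, 5.65% for *Ugt3a1* and under 0.7% for each of the other 6 genes. Alignments with more than 1 place in the genome had not been counted, so counts of *Ugt2b38* rest on the parts of the transcript that differ from its relatives.

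Start regions (250 bases before to 50 bases after a RefSeq transcript start) are shown for *Acsm2*, the most abundant of the genes, for *Keg1*, and for the region that bears on the naming. Capitals mark the half-site of HNF1 (GTTAAT), a factor of proximal tubule genes, or the half-site of the androgen receptor (AGAACA), both searched on both strands, and no match overlapped another. The *Acsm2* region is chr7:119153313-119153612, the *Keg1* region chr19:12672904-12673203 and the *Ugt3a2* region chr15:9279665-9279964, all on the plus strand of GRCm39 by exact match of the RefSeq sequence.
Acsm2: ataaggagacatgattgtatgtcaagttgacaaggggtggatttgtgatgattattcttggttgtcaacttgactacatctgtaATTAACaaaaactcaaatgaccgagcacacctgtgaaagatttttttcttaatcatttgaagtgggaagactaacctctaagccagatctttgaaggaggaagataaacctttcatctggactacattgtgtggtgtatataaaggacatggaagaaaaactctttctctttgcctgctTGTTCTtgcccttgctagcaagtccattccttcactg
Keg1: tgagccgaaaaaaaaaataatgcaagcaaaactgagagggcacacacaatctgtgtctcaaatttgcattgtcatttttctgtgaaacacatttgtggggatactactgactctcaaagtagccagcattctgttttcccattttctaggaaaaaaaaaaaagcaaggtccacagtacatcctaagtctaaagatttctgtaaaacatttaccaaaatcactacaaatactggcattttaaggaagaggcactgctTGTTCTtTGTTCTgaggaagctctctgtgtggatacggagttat
Ugt3a2 of GENCODE (Ugt3a1 of RefSeq): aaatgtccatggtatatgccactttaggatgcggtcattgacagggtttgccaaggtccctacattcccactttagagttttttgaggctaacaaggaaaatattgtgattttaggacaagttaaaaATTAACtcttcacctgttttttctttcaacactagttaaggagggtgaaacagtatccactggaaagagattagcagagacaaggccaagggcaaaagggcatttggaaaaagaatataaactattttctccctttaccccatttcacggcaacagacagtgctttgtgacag
The *Acsm2* region holds an HNF1 half-site at -166 and an androgen half-site at 13 relative to the start, the *Keg1* region holds androgen half-sites at 6 and 13, and the *Ugt3a2* region holds an HNF1 half-site at -123, all on the minus strand. Of 32851 RefSeq start regions of the same length, 7.10% held the HNF1 half-site and 19.0% the androgen half-site. The core of an HNF4 site (CAAAGTCC), present in 1.42% of all regions, was found in none of the members' regions, nor was any of the motifs found in the regions of *Acsm1*, *Acsm3*, *Acsm5*, *Glyat* and *Ugt2b38*. A further RefSeq region of *Acsm2* (chr7:119160681-119160980), with its start 7368 bases past the GENCODE gene start, also held none of them. The RefSeq starts used for *Acsm1*, *Acsm5* and *Ugt3a2* lie 10786, 6802 and 2941 bases past the GENCODE gene start. RefSeq *Ugt3a2* was not in the table. Such matches describe these letters only.

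Levels per length of exon differed widely between the genes. In wildtype kidneys *Acsm2* stood at 790 ± 103.1 CPM per kilobase (SD, n = 8), and by CPM its mean was the 14th highest of all genes of the table. *Ugt2b38* followed at 286 ± 71.2 CPM per kilobase, *Keg1* at 207 ± 39.1, *Ugt3a1* at 178 ± 96.8, *Glyat* at 100.1 ± 9.17, *Acsm3* at 95.1 ± 25.0, *Acsm1* at 63.6 ± 10.8, *Acsm5* at 21.3 ± 5.34 and *Ugt3a2* at 17.9 ± 13.8. Along this order *Acsm2* did not overlap *Ugt2b38* in wildtype kidneys, and *Acsm1* did not overlap *Acsm5*, while each other pair of neighbours overlapped. Exon lengths were the union of all transcripts of a gene, and by mean CPM *Keg1* (1263) lay above *Ugt2b38* (540). *Ugt3a1* spread most widely among the abundant genes, from 324 to 1255 CPM, and *Glyat* least, from 425 to 562 CPM. Together the 9 genes took 0.963% of all CPM in wildtype, 0.789% in PKD and 0.701% in PKD + Salsalate kidneys.

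**Figure D1:**
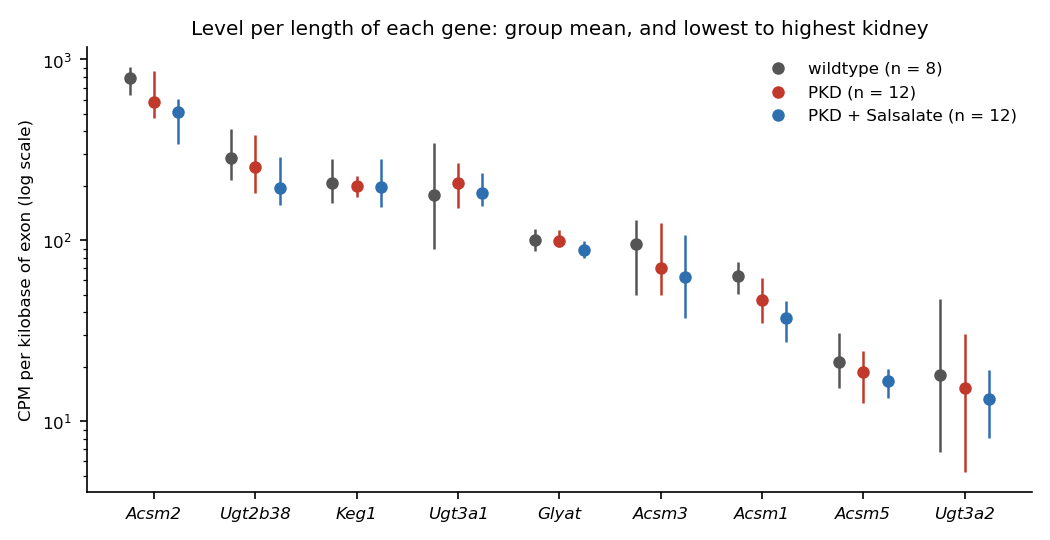
Mean level of each gene in CPM per kilobase of exon (log axis) in wildtype (n = 8), PKD (n = 12) and PKD + Salsalate kidneys (n = 12), with lines from the lowest to the highest kidney. *Acsm2* lay above all other genes in each group, and *Acsm5* and *Ugt3a2* lay lowest.

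The first comparison asked how the genes differed between cystic and wildtype kidneys. *Acsm1*, *Acsm2* and *Acsm3*, which activate medium-chain and aromatic acids with coenzyme A, were lower in PKD animals, by 26.1%, 26.4% and 25.9%. No transferase of either route passed the test against all 8 wildtype kidneys. Thus 3 of 9 genes were called (adjusted p under 0.05, edgeR's quasi-likelihood test with Benjamini-Hochberg adjustment), all lower, beside 49.1% of all genes tested and 25% of genes called lower. The median log2 fold change of the 9 genes was -0.18, against -0.01 over all genes.

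*Acsm1* ranged from 151 to 229 CPM in wildtype (median 189) and from 105 to 186 CPM in PKD kidneys (median 144). All 12 PKD kidneys lay below the wildtype median, and 8 lay below every wildtype kidney. The log2 fold change was -0.44 (SE 0.10, adjusted p = 0.00053 by edgeR). *Acsm2* ranged from 4732 to 6726 CPM in wildtype (median 6219) and from 3513 to 6376 CPM in PKD kidneys (median 4165). Of the PKD kidneys, 9 lay below every wildtype kidney and 1, replicate 4, above the wildtype median. Its log2 fold change was also -0.44 (SE 0.10, adjusted p = 0.00048 by edgeR). *Acsm3* ranged from 250 to 649 CPM in wildtype (median 459) and from 250 to 630 CPM in PKD kidneys (median 329). The groups overlapped over the whole range, because wildtype replicate 1 was as low as the lowest PKD kidney and PKD replicate 10, the kidney with liver transcripts, was nearly as high as the highest wildtype kidney. Its log2 fold change of -0.43 (SE 0.17) had an adjusted p of 0.035 by edgeR. This call was lost when any 1 of 8 kidneys was left out, with log2 fold changes between -0.54 and -0.36 and adjusted p-values from 0.0057 to 0.086 over all 32 such fits.

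*Acsm5* had a log2 fold change of -0.18 (SE 0.11, adjusted p = 0.16 by edgeR), from 82.3 to 166 CPM in wildtype and 68.2 to 132 CPM in PKD kidneys. *Glyat*, the enzyme that forms the glycine conjugate, showed the smallest difference, with 485 ± 44.5 CPM in wildtype and 482 ± 34.2 CPM in PKD kidneys. Its log2 fold change of -0.01 had a 95% interval from -0.12 to 0.10. *Keg1* averaged 1263 ± 239 and 1221 ± 109 CPM, with an interval of the log2 fold change from -0.24 to 0.14. Neither passed the test, and PKD and wildtype kidneys overlapped for both. *Ugt2b38*, which by its family transfers glucuronic acid, averaged 540 ± 135 and 479 ± 107 CPM (log2 fold change -0.17, SE 0.13, adjusted p = 0.27 by edgeR). *Ugt3a1* averaged 647 ± 352 and 755 ± 141 CPM (log2 fold change 0.22, SE 0.18), and *Ugt3a2* 47.9 ± 36.9 and 40.6 ± 18.3 CPM (log2 fold change -0.24, SE 0.29).

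**Figure D2:**
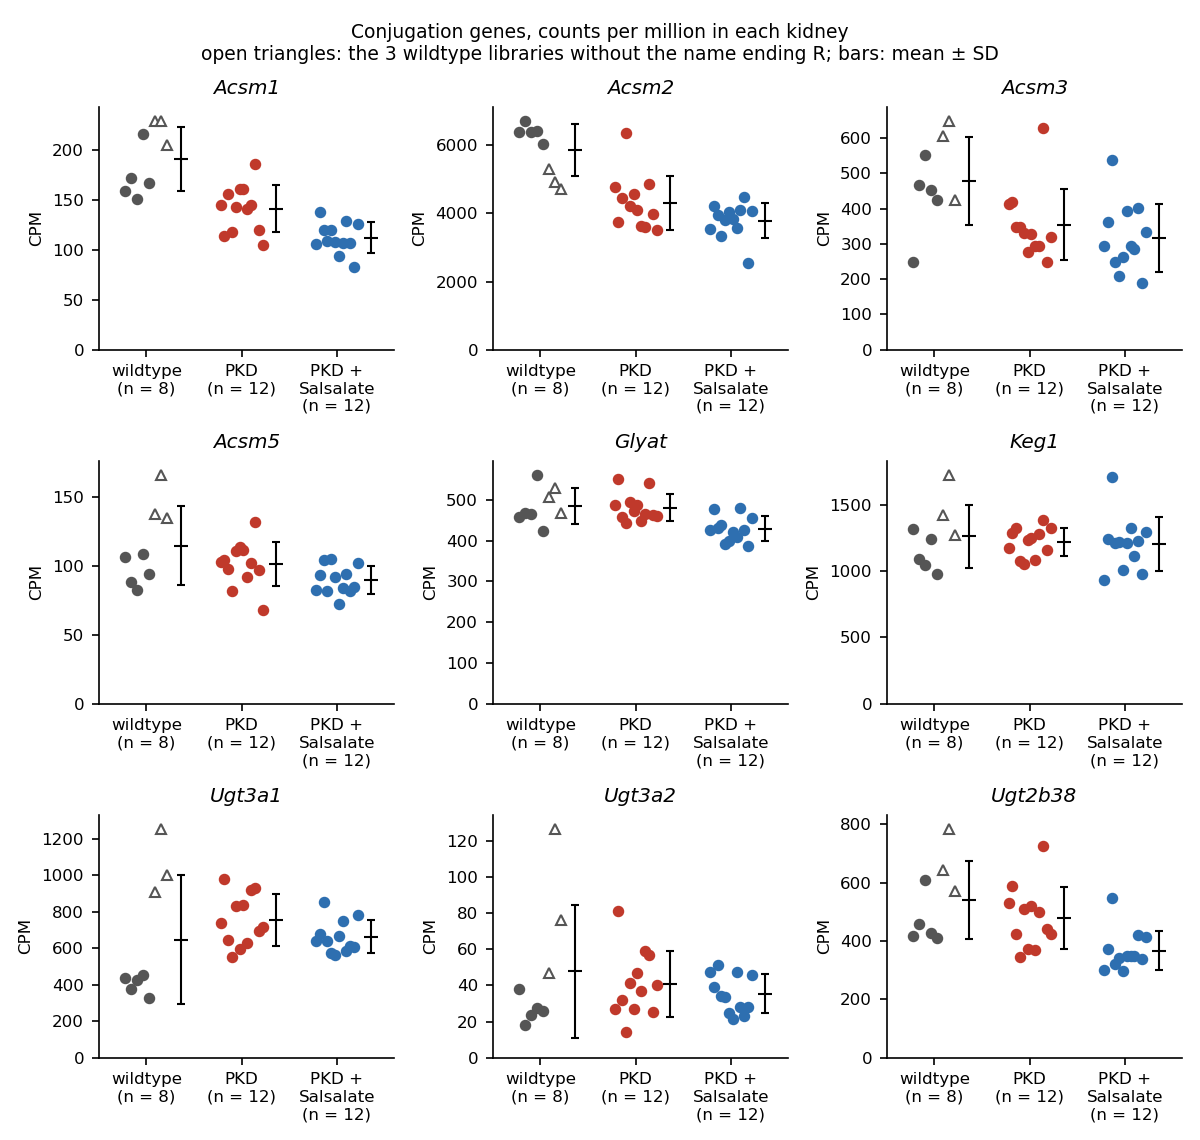
CPM of the 9 genes in each of 32 kidneys by group, on linear axes from 0. Open triangles are the 3 wildtype libraries without the name ending R, and bars give the mean ± SD of each group. *Ugt3a1* in wildtype splits into 5 kidneys at 324 to 451 CPM and 3 kidneys at 906 to 1255 CPM.

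The wide spread of both *Ugt3a* genes in wildtype followed the 2 sets of libraries. *Ugt3a1* was at 439, 378, 424, 451 and 324 CPM in the 5 wildtype libraries ending in R and at 906, 1255 and 999 CPM in the other 3. *Ugt3a2* was at 37.8, 18.0, 23.7, 27.5 and 26.1 CPM in the former and at 46.9, 127 and 76.3 CPM in the latter. The sets did not overlap for either gene, nor for *Acsm5* (3 of 9 genes higher, beside 21.4% of all genes). In a fit of 4 groups with the sets apart, chosen after seeing the data, *Ugt3a1* was higher in the 3 libraries not ending in R by a log2 fold change of 1.39 (SE 0.16, adjusted p = 3.2e-08 by edgeR) and *Ugt3a2* by 1.65 (SE 0.36, adjusted p = 0.00037). *Acsm2* went the other way, at 6391, 6726, 6395, 6413 and 6047 CPM in the libraries ending in R and at 5293, 4939 and 4732 CPM in the others (log2 fold change -0.36, SE 0.15, adjusted p = 0.046), again without overlap, as for 22.4% of all genes. Between these sets of untreated mice 7 of the 9 genes were called, 6 of them higher in the libraries not ending in R, beside 48.1% of all genes called and 23.7% called higher. *Acsm3* and *Glyat* were not called.

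The direction of the PKD difference depended on the wildtype set for several genes. Against the 5 wildtype libraries ending in R, all 12 PKD kidneys were higher in *Ugt3a1*, as for 12.2% of all genes (log2 fold change 0.91, SE 0.12, adjusted p = 1.6e-07 by edgeR), and against the 3 others the log2 fold change was -0.48 (SE 0.14, adjusted p = 0.0057). *Ugt3a2* turned from 0.63 (SE 0.28, adjusted p = 0.056) to -1.02 (SE 0.30, adjusted p = 0.0072 by edgeR), and in a fit without the other wildtype libraries it was called higher against those ending in R (0.63, SE 0.27, adjusted p = 0.049 by edgeR). *Acsm5* turned from 0.08, not called, to -0.53 (SE 0.12, adjusted p = 0.00058), and *Ugt2b38* from 0.04, not called, to -0.48 (SE 0.16, adjusted p = 0.019). *Acsm1* was lower in PKD animals against either set, with -0.29 (SE 0.11, adjusted p = 0.018 by edgeR) and -0.65 (SE 0.13, adjusted p = 0.00011). *Acsm2* was lower by -0.57 (SE 0.10, adjusted p = 2.4e-05) against the libraries ending in R and by -0.21 (SE 0.13, adjusted p = 0.20 by edgeR) against the others, and *Acsm3* by -0.28 (SE 0.19, adjusted p = 0.22) and -0.66 (SE 0.23, adjusted p = 0.020 by edgeR). In all, 3 of 9 genes passed with the first set (2 lower, beside 60.3% of all genes called and 29.3% called lower) and 6 of 9 with the second (all lower, beside 39.4% called and 18.5% called lower). *Acsm1* was the only gene of the 9 called lower against both sets.

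**Figure D3:**
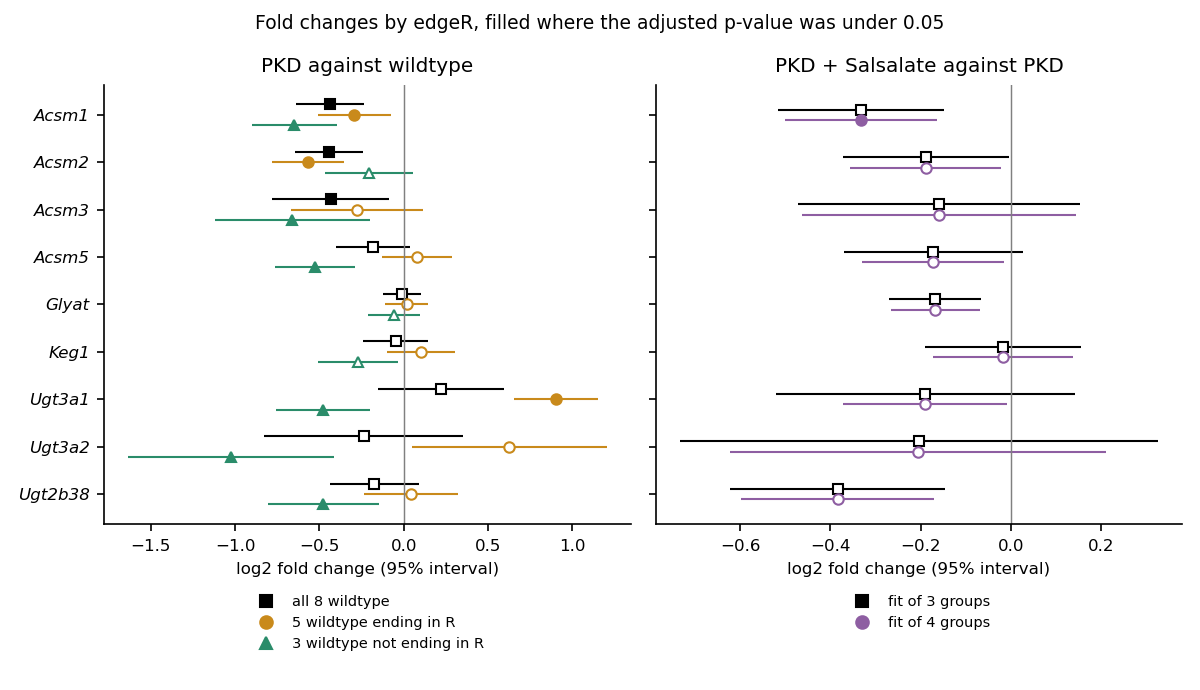
Log2 fold changes with 95% intervals from edgeR for PKD against wildtype (left, with all 8 wildtype kidneys, the 5 ending in R or the 3 others) and PKD + Salsalate against PKD (right, with wildtype as 1 or 2 groups), filled where the adjusted p-value was under 0.05. *Ugt3a1* lies at 0.91 against the libraries ending in R and at -0.48 against the others, while *Acsm1* lies below 0 against both.

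The same genes varied within the PKD groups with the share of alignments on no feature. Whether that share reflects the library or the tissue was not tested. Among the 12 PKD kidneys this share ran from 7.65% (replicate 2) to 16.4% (replicate 4). PKD replicate 2 had the highest *Ugt3a1* (978 CPM) and *Ugt3a2* (81.0 CPM) of its group, and replicate 4 the lowest (551 and 14.0 CPM) as well as the highest *Acsm2* (6376 CPM). The log2 CPM of *Ugt3a2* fell with the share at Pearson's r = -0.97 (p = 1e-05 by 100000 permutations, the smallest they can give, adjusted p = 9e-05) and Spearman's rho = -0.96 (permutation p = 1e-05, adjusted p = 0.00018), and without the 2 kidneys farthest from the median share r was -0.95. For *Ugt3a1* r was -0.88 (permutation p = 1e-05, adjusted p = 9e-05), rho -0.92 (permutation p = 9e-05, adjusted p = 0.00081) and r without 2 kidneys -0.85. In PKD + Salsalate kidneys, where the share ran only from 7.87% to 11.9%, r was -0.77 for *Ugt3a1* (permutation p = 0.0033, adjusted p = 0.020, rho -0.72 with permutation p = 0.011 and adjusted p = 0.063, r without 2 kidneys -0.50) and -0.64 for *Ugt3a2* (permutation p = 0.024, adjusted p = 0.065, rho -0.62 with permutation p = 0.038 and adjusted p = 0.11). *Acsm2* gave r = 0.76 in PKD kidneys (permutation p = 0.0072, adjusted p = 0.032), but rho was 0.51 (permutation p = 0.095, adjusted p = 0.25) and r without 2 kidneys 0.37, so this relation rests on the kidneys left out. *Ugt2b38* gave r = -0.69 (permutation p = 0.014, adjusted p = 0.050, just over the threshold) and rho = -0.70 (permutation p = 0.014, adjusted p = 0.063) in PKD kidneys, and -0.53 without 2 kidneys. Of 18 relations, 9 genes in each of 2 groups, 4 passed by Pearson's r and 2 by rho after adjustment over the 18. Among all genes tested, 6.18% had an r below -0.8 with this share in PKD kidneys and 10.6% an r above 0.8. An r below -0.6 was found for 20.5% of all genes in PKD kidneys and an r above 0.6 for 21.1%. In PKD + Salsalate kidneys these shares of genes were 15.7% and 13.2%.

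**Figure D4:**
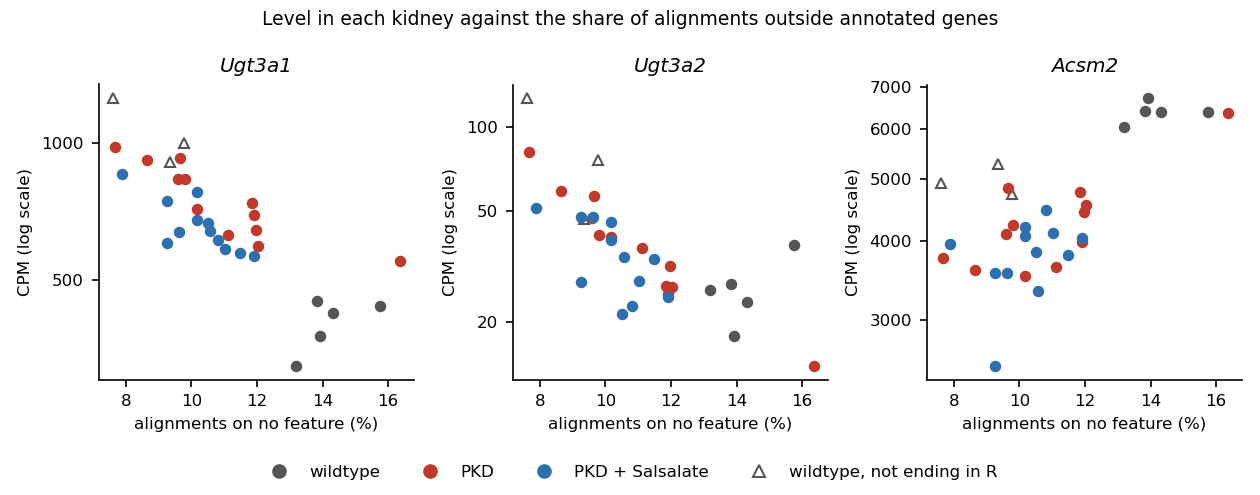
CPM (log axis) of *Ugt3a1*, *Ugt3a2* and *Acsm2* in each kidney against the percentage of its alignments on no annotated feature. *Ugt3a1* and *Ugt3a2* are lowest toward the right, where the 5 wildtype libraries ending in R and PKD replicate 4 lie, and *Acsm2* is highest there.

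With that share as a covariate, added after seeing the data, *Acsm1* (-0.48, SE 0.10), *Acsm2* (-0.35, SE 0.08) and *Acsm3* (-0.51, SE 0.16) were still lower in PKD than in wildtype animals, with adjusted p-values of 9.3e-05, 0.00029 and 0.0073 by edgeR. *Acsm5* (-0.25, SE 0.09, adjusted p = 0.022), *Ugt3a2* (-0.51, SE 0.15, adjusted p = 0.0059) and *Ugt2b38* (-0.30, SE 0.10, adjusted p = 0.011 by edgeR) were then called lower as well, which made 6 of 9 genes, beside 52.9% of all genes called and 26.5% called lower. *Ugt3a1* was not called (0.13, SE 0.10).

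Cell type markers differed between the groups as well. The summed level of the 6 markers of the S3 segment of the proximal tubule went from 1313 to 2812 CPM in wildtype, 1357 to 2111 CPM in PKD and 1219 to 2074 CPM in PKD + Salsalate kidneys, and 4 of the 6 were called lower in PKD (1 higher and 2 lower against the wildtype libraries ending in R, 5 lower against the others). The 10 markers of the S1 and S2 segments summed to 7264 to 14641 CPM, 8247 to 11347 CPM and 8238 to 10495 CPM, with 2 called higher and 2 lower in PKD, but 8 higher and 1 lower with the R-ending wildtype libraries as reference, and 0 higher and 5 lower with the others. All 7 markers of tubular injury, all 6 tested markers of leukocytes and all 6 of fibroblasts were called higher in PKD, as were at least 6, 6 and 5 of them against either wildtype set. In bulk kidney RNA, fewer cells of a type and less RNA of a gene per cell cannot be told apart, and the part of cell makeup in these differences was not tested.

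The next comparison asked whether the 9 genes differed between PKD animals with and without salsalate. No gene rose: the log2 fold changes of PKD + Salsalate against PKD were below 0 for all 9 genes, as they were for 54% of all genes. None of the 9 passed edgeR's quasi-likelihood test at an adjusted p under 0.05, beside 0.58% of all genes (81 genes). At an unadjusted p under 0.05, 4 of 9 were lower (*Acsm1*, *Acsm2*, *Glyat* and *Ugt2b38*), beside 10.3% of all genes in either direction and 5.3% lower. The median log2 fold change was -0.19 for the 9 genes and -0.01 over all genes.

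*Acsm1* came nearest to the threshold in this fit. It ranged from 82.8 to 138 CPM in PKD + Salsalate kidneys (median 108), against 105 to 186 CPM in PKD kidneys (median 144). All 12 treated kidneys lay below the PKD median, but only 2 below every PKD kidney. The log2 fold change was -0.33 (SE 0.09, adjusted p = 0.080 by edgeR). Over 12 other settings its log2 fold change lay between -0.36 and -0.25, with adjusted p-values from 0.018 to 0.17. It was called (adjusted p = 0.037 by edgeR) when the wildtype sets were fitted apart, as 1 of 9 genes, beside 1.25% of all genes called and 0.688% called lower, and it was called with *Glyat*, 2 of 9 genes, by the Wald test of DESeq2, beside 1.43% of all genes. Without PKD replicate 12 its adjusted p was 0.046 by edgeR, and without PKD replicate 10 and PKD + Salsalate replicate 11 together it was 0.17. *Glyat* ranged from 387 to 480 CPM in PKD + Salsalate (median 427) and from 444 to 550 CPM in PKD kidneys (median 470). Of the treated kidneys 9 lay below every PKD kidney, although the difference was small (log2 fold change -0.17, SE 0.05, adjusted p = 0.11 by edgeR). *Ugt2b38* ranged from 298 to 546 CPM in PKD + Salsalate (median 348) and from 345 to 725 CPM in PKD kidneys (median 470). Of the treated kidneys 11 lay below the PKD median and 5 below every PKD kidney (log2 fold change -0.38, SE 0.12, adjusted p = 0.13 by edgeR). The highest PKD kidney was replicate 10, with the liver transcripts, and the next was at 587 CPM. Without replicate 10 the log2 fold change of *Ugt2b38* was -0.32. Over all 32 fits without 1 kidney its adjusted p-values ran from 0.059 to 0.23 by edgeR. With the share on no feature as a covariate, *Acsm1* (-0.36, SE 0.09), *Glyat* (-0.18, SE 0.05, adjusted p = 0.023) and *Ugt2b38* (-0.44, SE 0.09, adjusted p = 0.0042 by edgeR) were called lower, 3 of 9 genes, beside 4.18% of all genes called and 1.97% called lower.

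*Acsm2* averaged 3790 ± 507 CPM in PKD + Salsalate and 4318 ± 794 CPM in PKD kidneys (log2 fold change -0.19, SE 0.09, adjusted p = 0.47 by edgeR). The intervals of the other 5 genes included 0. They ran from -0.47 to 0.15 for *Acsm3*, from -0.37 to 0.03 for *Acsm5*, from -0.19 to 0.16 for *Keg1*, from -0.52 to 0.14 for *Ugt3a1* and from -0.73 to 0.33 for *Ugt3a2*. *Keg1* had the narrowest of these intervals, with 1221 ± 109 CPM in PKD and 1207 ± 202 CPM in PKD + Salsalate kidneys. When PKD replicate 10 and PKD + Salsalate replicate 11 were both left out, *Acsm3* went to 0.01 and *Keg1* to 0.03.

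Against wildtype, PKD + Salsalate kidneys were lower in 6 of the 9 genes, beside 44.9% of all genes called and 23.2% called lower. *Acsm1* (-0.77, SE 0.10, adjusted p = 1.7e-07) and *Acsm2* (-0.63, SE 0.10, adjusted p = 5.2e-06 by edgeR) had the lowest adjusted p-values, and for both every treated kidney lay below every wildtype kidney, as for 1.93% of all genes. *Acsm3* (-0.59, SE 0.17, adjusted p = 0.0053), *Ugt2b38* (-0.56, SE 0.13, adjusted p = 0.00076), *Acsm5* (-0.35, SE 0.11, adjusted p = 0.0082) and *Glyat* (-0.18, SE 0.06, adjusted p = 0.0094 by edgeR) were also lower. *Keg1* (-0.07, SE 0.10), *Ugt3a1* (0.03, SE 0.18) and *Ugt3a2* (-0.44, SE 0.29) were not called. With the 5 wildtype libraries ending in R as the reference, *Acsm1*, *Acsm2*, *Glyat* and *Ugt2b38* were lower and *Ugt3a1* higher (0.72, SE 0.12), 5 of 9 genes beside 58.6% of all genes called, with 4 lower beside 28.8% called lower. Against the 3 others 8 of 9 genes were lower, *Ugt3a1* included (-0.67, SE 0.14), beside 33.5% of all genes called and 15.7% called lower. The 3 comparisons share groups, so their calls are not independent of each other.

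Within the PKD groups, levels of *Acsm1* and *Acsm2* varied with the transcripts of tubular injury. The measure was the summed CPM of *Havcr1*, *Lcn2*, *Krt20*, *Sox9*, *Vcam1*, *Spp1* and *Clu*, of which *Spp1* made up 78.2% in PKD and 78.1% in PKD + Salsalate kidneys. It ran from 1278 to 4053 CPM in PKD + Salsalate kidneys. Replicate 11, which had the highest value, had the lowest *Acsm1* (82.8 CPM), *Acsm2* (2534 CPM), *Acsm3* (188 CPM) and *Glyat* (387 CPM) of its group. In PKD + Salsalate kidneys r on the log2 scale was -0.92 for *Acsm1* (permutation p = 1e-04, adjusted p = 0.0018) and rho -0.84 (permutation p = 0.0013, adjusted p = 0.016), and r was -0.80 without the 2 kidneys farthest from the median. For *Acsm2* r was -0.86 (permutation p = 0.0012, adjusted p = 0.011), rho -0.80 (permutation p = 0.0027, adjusted p = 0.016) and r without 2 kidneys -0.61. *Glyat* (r = -0.63, permutation p = 0.028, adjusted p = 0.17) and *Acsm5* (r = -0.60, permutation p = 0.038, adjusted p = 0.17) did not pass after adjustment. *Acsm3* gave r = -0.42 (permutation p = 0.17, adjusted p = 0.345), and 0.02 without 2 kidneys. In PKD kidneys *Acsm1* gave r = -0.44 (permutation p = 0.155, adjusted p = 0.345) and rho = -0.57 (permutation p = 0.055, adjusted p = 0.20). *Acsm2* gave r = -0.54 (permutation p = 0.076, adjusted p = 0.23) but rho = -0.80 (permutation p = 0.0023, adjusted p = 0.016), and r = -0.82 without 2 kidneys. Whether the relation differed between the groups was not tested. Of the 18 relations computed, 2 passed by Pearson's r and 3 by rho after adjustment, and r was below 0 for 5 of 9 genes in PKD and 9 of 9 in PKD + Salsalate kidneys, beside 49% and 49.5% of all genes. An r below -0.8, as for *Acsm1* and *Acsm2* in PKD + Salsalate kidneys, was found for 1.13% of all genes there.

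**Figure D5:**
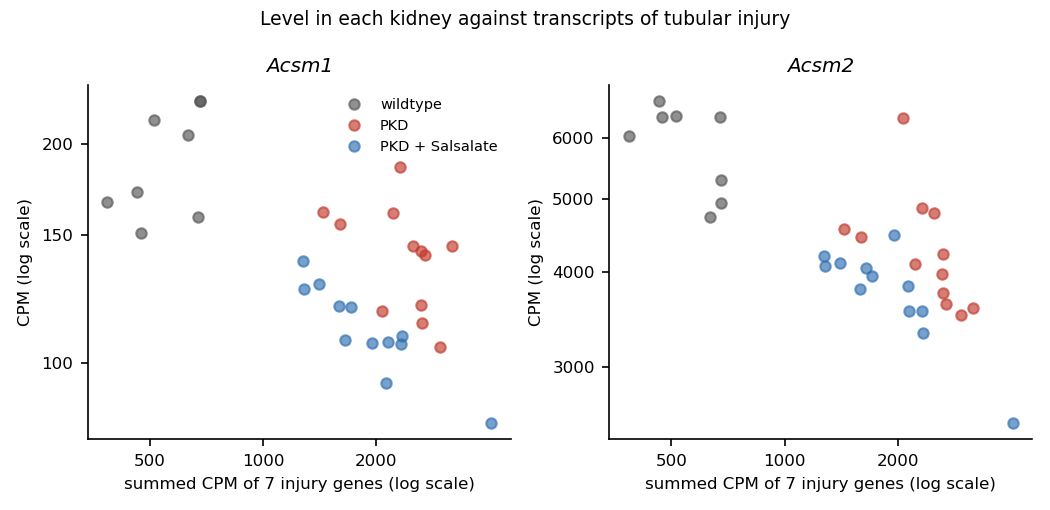
CPM of *Acsm1* and *Acsm2* in each kidney against the summed CPM of 7 injury genes, both on log axes. Both genes are lowest in the PKD + Salsalate kidney farthest to the right (4053 CPM of injury transcripts), and the wildtype kidneys form a separate cluster to the left.

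The genes also varied together within groups. Over 32 kidneys, with log2 CPM centred within the 3 groups, r between 2 of the 9 genes had a median of 0.46 over 36 pairs and ran from -0.55 to 0.84. With the wildtype sets centred apart the median was 0.42, with a range from -0.42 to 0.80. *Ugt3a1* with *Ugt3a2* gave the highest r (0.84, and 0.80 with the sets apart), followed by *Acsm1* with *Acsm5* (0.77 and 0.73), *Ugt3a1* with *Ugt2b38* (0.75 and 0.77) and *Acsm3* with *Ugt2b38* (0.73 and 0.71). *Acsm2* stood apart from both *Ugt3a* genes, with r = -0.55 for *Ugt3a2* (-0.42 with the sets apart) and -0.44 for *Ugt3a1* (-0.19). With *Ugt2b38* it gave -0.13 (0.07 with the sets apart). *Acsm1* and *Acsm2*, neighbours on the chromosome, gave only 0.17 (0.40 with the sets apart). Between the 9 genes and all other genes tested the median r, centred within the 3 groups, was -0.01. These values describe kidneys that share depth and library quality, include PKD replicate 10 with its liver transcripts, and carry no test.

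The 2 genes most like each member by the same measure were taken from all genes tested, over 32 kidneys. *Acsm1* was nearest to *Upb1* (r = 0.87), of pyrimidine breakdown, and *Hpd* (0.86), of tyrosine breakdown. *Acsm2* was nearest to *Oxct1* (0.88), which activates ketone bodies with coenzyme A, and *Erc2* (0.88). *Acsm3* was nearest to the organic anion carrier *Slco1a1* (0.94) and *Hsd17b11* (0.87), and *Acsm5* to *Calcoco1* (0.87) and *Hgd* (0.86), of tyrosine breakdown. *Glyat* was nearest to *Ppa2* (0.80) and *Ephx2* (0.79), and *Slc46a3* (0.80) was among the nearest of *Keg1*. *Ugt3a1* was nearest to *Cers6* and *Arl6ip1* (0.96 each), *Ugt3a2* to *Xpnpep1* and *Aldh7a1* (0.91 each) and *Ugt2b38* to *Golm2* (0.88). With the wildtype sets centred apart the r values of these named genes ran from 0.77 to 0.93.

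The genes that supply or neighbour the conjugation routes were given by lists. Of 13 tested genes among other acyl-CoA synthetases, 3 were higher and 4 lower in PKD than in wildtype. *Acss1*, which activates acetate in mitochondria, was the gene of these lists that also passed between PKD + Salsalate and PKD. It fell from 177 ± 31.9 CPM in wildtype to 115 ± 15.1 CPM in PKD (log2 fold change -0.62, SE 0.09, adjusted p = 4.4e-07 by edgeR) and was at 150 ± 15.9 CPM in PKD + Salsalate kidneys, higher than in PKD by 0.39 (SE 0.08, adjusted p = 0.015). The largest rise of that list was *Acsf2* (0.57, SE 0.13, adjusted p = 0.00061 by edgeR). Of coenzyme A synthesis, 3 of 6 genes were lower in PKD and none higher, and *Pank3*, a pantothenate kinase, fell most (-0.51, SE 0.11, adjusted p = 0.00039 by edgeR).

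Of 11 tested genes of glycine synthesis and breakdown, 1 was higher and 3 lower in PKD. *Gatm*, which uses glycine to make guanidinoacetate, fell most (-0.56, SE 0.13, adjusted p = 0.00076 by edgeR). Its wildtype replicate 1 held 871 CPM and the next wildtype kidney 447 CPM, and the medians were 398 CPM in wildtype and 295 CPM in PKD. *Bhmt*, an enzyme abundant in liver, was called higher (1.51, SE 0.47, adjusted p = 0.0079 by edgeR), but PKD replicate 10, with the liver transcripts, held 81.7 CPM and the next PKD kidney 9.68 CPM, against 2.54 to 5.71 CPM in wildtype. Of the other amino acid N-acyltransferases 2 of 5 were tested, and *Acnat2* rose from 24.1 ± 5.85 to 44.3 ± 8.11 CPM in PKD (0.88, SE 0.14, adjusted p = 3.8e-06 by edgeR).

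Of the other UDP-glycosyltransferases 6 of 19 were tested, with 1 higher and 3 lower in PKD. *Ugt2b37*, which shares sequence with *Ugt2b38*, fell most (-0.83, SE 0.18, adjusted p = 0.00024 by edgeR), and *Ugt2b34* rose (0.84, SE 0.19, adjusted p = 0.00040). Of 10 genes of UDP-sugar supply, *Uxs1*, which makes UDP-xylose, was higher (0.75, SE 0.14, adjusted p = 4.9e-05 by edgeR) and *Pgm3* lower (-0.19, SE 0.08, adjusted p = 0.034). Of 7 tested sulfotransferases and PAPS synthases, a parallel route for phenols, 2 were higher and 2 lower, with *Sult1c2* at 0.43 (SE 0.10, adjusted p = 0.00038 by edgeR) and *Papss1* at -0.38 (SE 0.10, adjusted p = 0.0018). The medians of these lists lay between -0.25 (coenzyme A synthesis) and 0.38 (other amino acid N-acyltransferases), against -0.01 over all genes. Between PKD + Salsalate and PKD animals *Acss1* was the only gene of these 7 pathway lists that was called. With the wildtype sets apart, other acyl-CoA synthetases counted 8 higher and 3 lower in PKD against the libraries ending in R, and 1 higher and 6 lower against the others. The counts were 4 higher and 2 lower against 0 and 5 for glycine synthesis and breakdown, 3 and 1 against 0 and 4 for UDP-sugar supply, 2 and 2 against 0 and 3 for the other UDP-glycosyltransferases, and 2 and 2 against 0 and 1 for sulfotransferases and PAPS synthases. The rises of *Bhmt*, *Ugt2b34*, *Uxs1* and *Sult1c2* were therefore not called against the 3 wildtype libraries not ending in R. Only coenzyme A synthesis (0 higher and 3 lower, against 0 and 4) and the other amino acid N-acyltransferases (1 higher against either set) kept the direction of their calls with both sets.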

How the data were processed

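The authors made poly(A) RNA libraries with a directional kit, clipped adapters with Cutadapt 2.10, aligned reads to GRCm39 with STAR 2.7.5a and used HTSeq 0.12.4 with its strand option, and they deposited raw counts of 53700 genes in 32 kidneys without normalization. Groups came from the sample labels. Of alignments, 73.6% to 83.1% per kidney were counted on genes, and 5 summary lines of uncounted alignments were kept out of library totals. The lowest count of any member in any kidney was 150 (*Ugt3a2*).

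Tests were made with edgeR 4.0.16 under R 4.3.3 on genes with log2 CPM over 1 in at least 25% of kidneys (13961), after TMM normalization: 1 quasi-likelihood fit of the 3 groups, with Benjamini-Hochberg adjustment over all genes tested and a threshold of 0.05. P-values measure the spread between these kidneys. Correlations used log2 CPM and 100000 permutations, 2-sided. The scripted test was checked on simulated data. Alternatives were size factors and the Wald test of DESeq2 1.42.0, limma-voom (limma 3.58.1), other filters, only the groups compared, the replicate block, either wildtype set alone and each kidney left out. A fit of 4 groups, a fit without PKD replicate 10 and PKD + Salsalate replicate 11, and the share on no feature as a covariate were added after seeing the data. Members, gene lists and motifs were chosen with earlier results of these data known. Named genes are the 9 members, *Pkd1*, the genes of each list that passed between PKD + Salsalate and PKD, the largest rise and fall of each list between PKD and wildtype, and the 2 nearest genes of each member, of which some are not reported here. Positions and exon lengths (union of all transcripts) are from GENCODE M39, which held 52610 of the 53700 identifiers, and start regions are from RefSeq (table of GRCm38.p6). *Gcat* was left out, since its symbol belongs to 2 overlapping genes.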

Additional observations from a re-analysis of the deposited data

Results flagged for a closer look

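In the 5 wildtype libraries ending in R, *Ugt2b38* was at 607 CPM in replicate 3, far above the other 4 at 410 to 459 CPM. The gap to its nearest neighbour was 0.751 of the whole range of the set. Of 18 sets of values examined (9 genes in all 8 wildtype kidneys and in the 5 ending in R), this was the only such case, and chance gives about 1 in 20 sets. The 3 wildtype libraries not ending in R were at 570 to 785 CPM.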

How the results depend on the processing

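The calls between PKD + Salsalate and PKD depended most on the setting. Against 81 genes and 0 members called, the Wald test of DESeq2 called 199 genes and 2 members, limma-voom 146 genes, a fit of only the 2 groups 195 genes and 1 member, fits with only the wildtype libraries ending in R or only the others 145 and 257 genes with 1 member each, the fit of 4 groups 174 genes and 1 member, the fit without PKD replicate 10 and PKD + Salsalate replicate 11 189 genes, and the fit with the share on no feature as a covariate 583 genes and 3 members. The cause was not tested. Leaving out 1 kidney gave 39 (without PKD + Salsalate replicate 5) to 226 genes (without PKD + Salsalate replicate 11) and 0 to 1 members. Replicate numbers did not pair the samples (median correlation of same-numbered samples -0.12 between the PKD groups, over 0.1 in 2 of 12 pairs, and 1 sample correlated best with its own number). With the replicate block 48 genes and 0 members were called, and no call of a member changed in any comparison.

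Between PKD and wildtype 3 members were called in the main fit, beside 49.1% of all genes. Against the wildtype libraries not ending in R the fit of 4 groups called 6, beside 39.4% of all genes. A fit with only those wildtype libraries called 6 as well. With the covariate 6 were called, beside 52.9% of all genes. Leaving out 1 kidney gave 6116 to 7246 genes and 2 to 3 members. Log2 fold changes changed sign with only the wildtype libraries ending in R for *Acsm5* (0.076), *Glyat* (0.018), *Keg1* (0.10), *Ugt3a2* (0.63) and *Ugt2b38* (0.043), and likewise against that set in the fit of 4 groups (0.077, 0.018, 0.10, 0.63 and 0.044). *Ugt3a1* changed sign with only the other libraries (-0.49) and in the fit of 4 groups (-0.48), and *Glyat* without a filter (0.0043). Fits without 1 kidney ran from -0.037 to 0.021 for *Glyat*, from -0.094 to 0.030 for *Keg1* and from -0.38 to 0.15 for *Ugt3a2*. *Ugt3a1* was called (0.43, adjusted p = 0.031 by edgeR) without wildtype replicate 7, and *Acsm3* lost its call without a filter and with only the libraries ending in R.

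Between PKD + Salsalate and PKD, *Acsm3* (0.0054) and *Keg1* (0.032) changed sign without both kidneys, and *Keg1* ran from -0.072 to 0.014 without 1 kidney. Between PKD + Salsalate and wildtype, *Keg1* (0.087) and *Ugt3a2* (0.42) changed sign against the libraries ending in R in both kinds of fit, and *Ugt3a1* did against the others (-0.67 in both) and with the covariate (-0.17). Without 1 kidney *Keg1* ran from -0.12 to 0.013 and *Ugt3a1* from -0.066 to 0.24, with 5573 to 6867 genes and 6 members called. Over all other settings, 234 counts stayed within 1.5 times the reported one and 26 did not, while 1124 log2 fold changes kept their direction and side of the threshold, 37 changed sign, 27 were newly called and 18 lost their call. At 8 wildtype kidneys in 2 sets of libraries, differences of the *Ugt3a* genes from wildtype were not resolved. Between PKD and wildtype the sign for *Acsm5*, *Glyat*, *Keg1* and *Ugt2b38* also depended on the set. *Acsm2* was called only against the libraries ending in R, and *Acsm3* only against the others.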
